A study of Rattus norvegicus with 9 samples.

Results

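Iron handling genes were followed in the livers of rats with carbon tetrachloride (CCl4) fibrosis and of fibrotic rats given tormentic acid (TA), a triterpenoid from a folk herb. The 10 genes were Hamp, Bmp6, Tfr2, Tf, Tfrc, Slc39a14, Slc40a1, Cp, Ftl1 and Fth1, and each was looked up by its symbol in the gene tables. Of the 10, 9 were matched among the 16730 genes that both tables list, and Fth1 was not analysed here. All rats were male Sprague-Dawley animals, and whole liver RNA was sequenced from 3 livers in each of a normal control, a model and a TA group. Model and TA rats received 2 ml/kg of CCl4, as a 50% oil solution by gavage, 2 times a week for 9 weeks, and normal rats did not. TA rats then received TA for 6 weeks at 3.0 mg/kg. The sources used here do not say what normal or model rats were given in those 6 weeks. Every rat was fasted for 12 h before the liver was taken. The labels describe model and TA livers as hepatitis stage, number the TA libraries TA1 to TA3 without a dose, and do not tie a library to an animal. P-values therefore measure the spread between these libraries.

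The liver sets the iron level of the body. Hepatocytes secrete hepcidin, the peptide hormone encoded by Hamp, which binds ferroportin (Slc40a1), the only known cellular iron exporter, and has it degraded. Liver endothelial cells make BMP6 when iron is ample, BMP6 signals through SMAD proteins to the Hamp promoter, and transferrin receptor 2 (Tfr2) and hemojuvelin on hepatocytes adjust that signal, while IL-6 acts on Hamp through STAT3. Transferrin (Tf) carries iron in plasma, transferrin receptor 1 (Tfrc) and ZIP14 (Slc39a14) bring iron into cells, ceruloplasmin (Cp) oxidises exported iron, and ferritin, built from Ftl1 and Fth1 chains, stores it.

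Because Hamp had the widest spread of the 9 genes, its promoter is shown, together with that of Tfrc, the other promoter that held the same BMP response letters. Promoters came from RefSeq on build GRCr8, and 7 of the 10 genes had an entry, with Slc39a14, Ftl1 and Fth1 named only. Each search covered 250 bases before to 50 bases after the start on both strands, and only the 250 bases before the start are printed. Capitals in Hamp (chr1:95300272-95300521, minus strand) mark GGCGCC at position -129 and TTCTTGGAA, a STAT3 match, at position -117. In Tfrc (chr11:81690319-81690568, minus strand) they mark GGCGCC at position -118 and the hypoxia letters at positions -93 and -31.
Hamp: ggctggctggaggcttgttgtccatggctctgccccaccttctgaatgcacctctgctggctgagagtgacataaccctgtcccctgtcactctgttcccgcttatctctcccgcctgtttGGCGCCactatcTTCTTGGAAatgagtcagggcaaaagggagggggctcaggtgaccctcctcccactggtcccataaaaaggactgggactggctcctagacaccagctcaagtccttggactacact
Tfrc: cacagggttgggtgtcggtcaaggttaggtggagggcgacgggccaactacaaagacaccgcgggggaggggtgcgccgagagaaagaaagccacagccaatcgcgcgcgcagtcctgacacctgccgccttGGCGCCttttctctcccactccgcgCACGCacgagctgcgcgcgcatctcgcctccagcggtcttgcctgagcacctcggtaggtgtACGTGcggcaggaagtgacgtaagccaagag

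The letters GGCGCC stood in 2 of the 7 promoters and in 11% of all 33469 promoters of the same length. The STAT3 letters TTCNNNGAA stood in 1 of the 7, that of Hamp, and in 8.87% of all promoters. Hypoxia letters, ACGTG or GCGTG, stood in 3 of the 7 (Bmp6, Tfr2 and Tfrc) and in 41.6% of all. Neither the E-box CACGTG, which contains ACGTG, nor the antioxidant letters TGACNNNGC stood in any of the 7, against 6.42% and 12.1% of all promoters. These matches describe the letters of the windows alone.

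Counted reads ran from 13156735 to 18090223 in the 9 livers. The first model liver stood apart: its 50 most abundant genes took 27.9% of reads, against 40.4% to 45.7% in the other 8, and its TMM factor was 1.69, against 0.816 to 1.16. All 6 hepatocyte markers were abundant in every liver, but their summed level ran from 109070 to 137350 CPM (reads scaled to a common library size by TMM) in normal livers, was 26153, 73729 and 91538 CPM in model livers 1 to 3, and ran from 84927 to 146130 CPM in TA livers. Stellate cell markers summed to 188 to 283 CPM in normal, 1110 to 11873 CPM in model and 617 to 1118 CPM in TA livers, with the highest value in the first model liver. Sinusoidal endothelial markers summed to 205 to 256, 106 to 189 and 235 to 281 CPM in the same order, and Kupffer cell markers to 331 to 451, 218 to 682 and 303 to 735 CPM. The 8 Kupffer cell markers did not move as one. Their log2 fold changes of model over normal livers ran from -2.17 for Marco to 2.16 for Cd68, with a median of -0.059. Red cell markers (5 of 10 matched) summed to 500 to 860, 453 to 947 and 268 to 1627 CPM. In bulk tissue, fewer cells of a type and less RNA per cell cannot be told apart.

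By level per length (FPKM, the deposited measure of fragments scaled by gene length and library size), the 9 genes kept 1 order of group means in normal, model and TA livers: Tf, Hamp, Cp, Tfr2, Slc39a14, Ftl1, Tfrc, Bmp6 and Slc40a1. Tf averaged 6591 ± 1565 FPKM (SD, n = 3) in normal livers and Hamp 1962 ± 891 FPKM, whereas Bmp6 averaged 1.43 ± 0.80 FPKM and Slc40a1 0.83 ± 0.39 FPKM. In normal livers, Ftl1 and Tfrc overlapped, as did Bmp6 and Slc40a1, and the other neighbours in the order did not. In TA livers only Ftl1 and Tfrc overlapped. In model livers 5 of the 8 neighbouring pairs overlapped, among them Hamp and Cp, since the livers of that group lay far apart. The ferritin light chain Ftl1 has near-identical copies in the genome that could take part of its reads, so its level is uncertain.

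**Figure D1:**
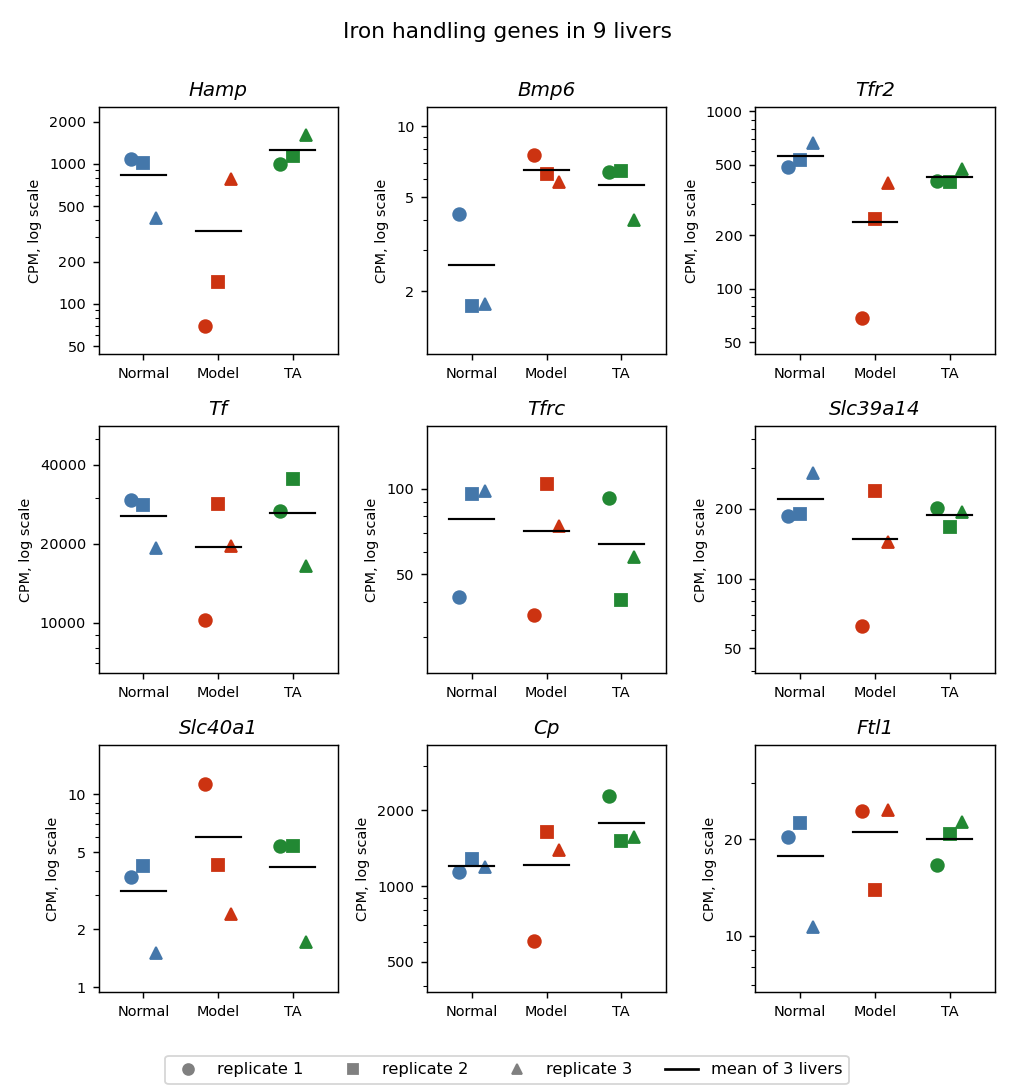
Level of each of the 9 iron handling genes in every liver, as CPM on a log axis, by group; symbols give the replicate and lines the mean of 3 livers. Hamp spanned 70.1 to 785 CPM in model livers and 1001 to 1600 CPM in TA livers, and each model liver had more Bmp6 than each normal liver.

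With regard to the effect of CCl4, no iron handling gene passed an adjusted p-value of 0.05 in Model VS Normal (0 of 9, edgeR's quasi-likelihood test with Benjamini-Hochberg adjustment), where 7.87% of all 12730 genes tested did. Of the 9 genes, 1, Bmp6, had an unadjusted p under 0.05, against 28.9% of all genes, and it also had a log2 fold change beyond 1, against 22.1%. With DESeq2, 1 of the 9 passed the adjusted threshold, against 20.9% of all genes, and with limma voom 3 did, against 27.2%. The 9 genes split into 4 higher and 5 lower in model livers, with a median log2 fold change of -0.14, against 0.017 over all genes. Their median absolute log2 fold change was 0.58, against 0.52 over all genes. Groups did not overlap for 2 of the 9, Bmp6 and Tfr2, against 38.2% of all genes.

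For TA VS Model, 0 of 9 genes passed the adjusted threshold and 0 had an unadjusted p under 0.05, against 0% and 15.6% of all 12781 genes. The share with a log2 fold change beyond 1 as well was 12.3% of all genes. DESeq2 and limma voom passed 0 of the 9, against 4.25% and 1.6% of all genes. The model and TA livers did not overlap for 2 of the 9, Hamp and Tfr2, against 23.1% of all genes. The median log2 fold change of the 9 was 0.35, against -0.0038 over all genes. In TA VS Normal, 0 of 9 passed, against 0.263% of 12179 genes, and 2, Bmp6 and Cp, had an unadjusted p under 0.05, against 9.43%. Of these, Bmp6 had a log2 fold change beyond 1, against 5.25% of all genes. DESeq2 and limma voom again passed 0 of the 9, against 2.96% and 1.04%. A block on the replicate number raised the genes that passed there from 32 to 203, or 1.67%, and still passed 0 of the 9. TA and normal livers did not overlap for 2 of the 9, Tfr2 and Cp, against 14.9% of all genes. The 3 comparisons share their groups pairwise and are not independent, and an exact permutation test of 3 against 3 livers cannot go below p = 0.1.

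**Figure D2:**
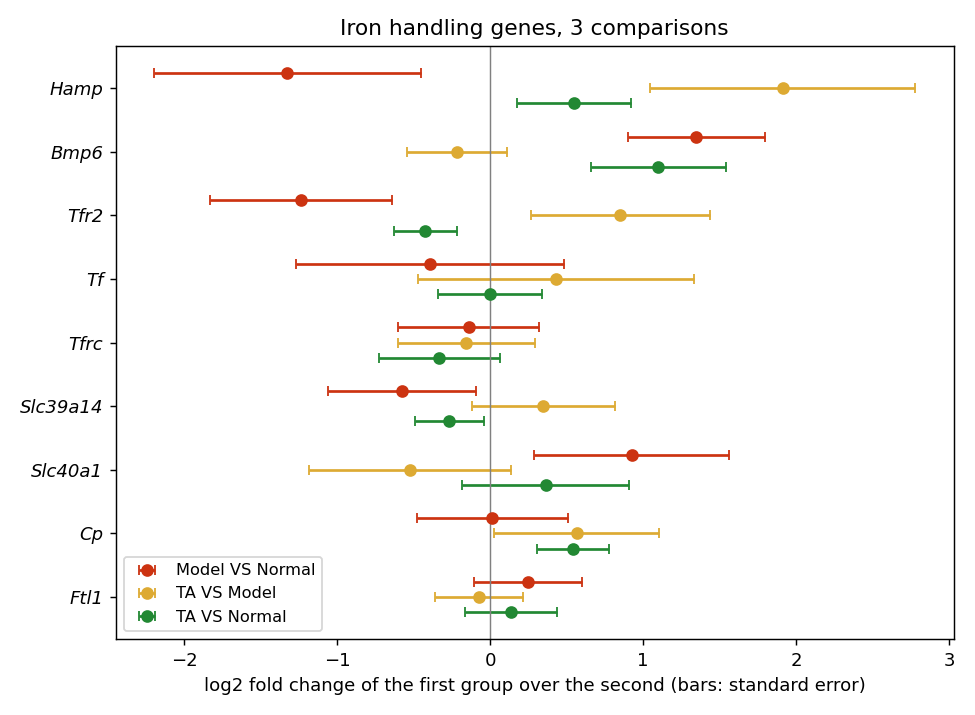
Log2 fold change of the 9 iron handling genes in the 3 comparisons, with bars for the standard error of edgeR's test. The values farthest from 0 were 1.91 for Hamp in TA VS Model, 1.35 for Bmp6 and -1.32 for Hamp in Model VS Normal.

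Among the regulators, Hamp varied most. Normal livers 1 to 3 held 12958, 15798 and 4911 reads of Hamp, or 1076, 1017 and 412 CPM. Model livers held 1561, 2188 and 11096 reads, or 70.1, 144 and 785 CPM. TA livers held 14062, 13570 and 21444 reads, or 1001, 1148 and 1600 CPM. The first and second model livers lay below all other livers, the third model liver lay inside the normal range, and every TA liver lay above every model liver. In the model group the highest Hamp level was 11.2 times the lowest, compared with 2.61 times in normal and 1.60 times in TA livers. On the log2 scale, Hamp differed by -1.32 ± 0.87 (SE) in Model VS Normal (edgeR, adjusted p = 0.344), 1.91 ± 0.87 in TA VS Model (adjusted p = 0.332) and 0.55 ± 0.37 in TA VS Normal (adjusted p = 0.770). None of these differences exceeded the spread between livers by this test. Without the third model liver, the value in Model VS Normal was -2.99 (adjusted p = 0.0203) and the TA VS Model value was 3.56 (adjusted p = 0.0572). Without the first model liver, they were -0.87 and 1.44. In limma voom, which gives deviating libraries less weight, Hamp passed in Model VS Normal (-2.25, adjusted p = 0.0255) but not in TA VS Model (2.47, adjusted p = 0.0713).

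Bmp6, the endothelial ligand that raises hepcidin, was the gene whose levels in model livers lay closest together. Normal livers held 51, 27 and 21 reads, or 4.24, 1.74 and 1.76 CPM. Model livers held 168, 95 and 82 reads, or 7.54, 6.25 and 5.80 CPM, and TA livers 90, 76 and 54 reads, or 6.41, 6.43 and 4.03 CPM. All 3 model livers lay above all 3 normal livers, and the lowest TA liver lay just under the highest normal liver. On the log2 scale, Bmp6 differed by 1.35 ± 0.44 (SE) in Model VS Normal, 2.55-fold, with an unadjusted p of 0.0164 and an adjusted p of 0.0979 (edgeR). In TA VS Normal it was 1.10 ± 0.44 (adjusted p = 0.464), and in TA VS Model it was -0.22 ± 0.33 (adjusted p = 0.760). Without the first model liver, the fold change in Model VS Normal was 1.21. The adjusted p passed with DESeq2 (0.0292), limma voom (0.0423) and library totals (0.0422), the last of which moved the median of all genes to 0.65. Over 14 alternatives, the adjusted p ran from 0.0292 to 0.267. Model livers thus had the higher Bmp6 and, in 2 of 3 livers, the lower Hamp. The summed level of the markers of endothelial cells, which make Bmp6, was lower in every model liver than in any normal liver, but of the 5 markers only Kdr was lower in each model liver, and none passed the test (0 of 5, edgeR, adjusted). Their part in the Bmp6 level was not tested.

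Tfr2, the hepatocyte receptor that senses iron-laden transferrin, held 487, 533 and 664 CPM in normal livers 1 to 3. Model livers held 68.4, 248 and 397 CPM and TA livers 407, 398 and 476 CPM. Normal, TA and model livers followed each other in this order without overlap, although the lowest TA liver and the highest model liver differed by less than 1 CPM. On the log2 scale, Tfr2 differed by -1.24 ± 0.59 (SE) in Model VS Normal (edgeR, adjusted p = 0.208), 0.85 ± 0.59 in TA VS Model (adjusted p = 0.479) and -0.42 ± 0.21 in TA VS Normal (adjusted p = 0.594). In Model VS Normal it was -0.82 without the first model liver, and it passed with limma voom (-1.02, adjusted p = 0.0438).

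Hamp and Tfr2 are hepatocyte genes. The first model liver had the lowest sum of the 6 hepatocyte markers, the lowest level of 5 of them (not of Apoa1), and the lowest Hamp and Tfr2. Hamp did not follow the marker sum in every liver. TA livers 1 and 3 had sums of 84927 and 92789 CPM, below every normal liver, but Hamp levels of 1001 and 1600 CPM. Each gene was therefore also counted per 10000 reads of the hepatocyte markers of the same liver, a measure added after the markers were seen. On this scale Hamp stood at 83.8, 74.0 and 37.8 in normal livers, at 26.8, 19.5 and 85.7 in model livers and at 118, 78.6 and 172 in TA livers. The first and second model livers stayed below all other livers, while the third stood above all normal livers, so that the groups overlapped (log2 difference -0.80, exact permutation p = 0.4, two-sided, n = 3 per group). TA and model livers overlapped as well (log2 difference 1.72, exact permutation p = 0.2). Tfr2 stood at 38.0, 38.8 and 60.9 in normal, 26.2, 33.6 and 43.4 in model and 48.0, 27.2 and 51.3 in TA livers, and all 3 groups overlapped. Bmp6, Cp and Ftl1 were higher in every model than in every normal liver per hepatocyte marker read, by 2.61, 1.04 and 1.41 on the log2 scale (exact permutation p = 0.1 for each, the smallest this design can give). The marker sum was itself lower in every model than in every normal liver, so a gene of even CPM rises on this scale. Alb made up most of the sum in each liver, for example 20445 of 26153 CPM in model liver 1 and 90038 of 128420 CPM in normal liver 1. The scale thus mainly counts reads per Alb read. Of the 6 markers, Apoa1 and Cps1 overlapped between model and normal livers, and none passed in Model VS Normal (0 of 6, edgeR, adjusted). By CPM, Cp and Ftl1 differed by 0.015 and 0.25 on the log2 scale, and their groups overlapped. The share of all genes without overlap on this scale was not computed. How far the hepatocyte share accounts for any of these levels was not tested.

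**Figure D3:**
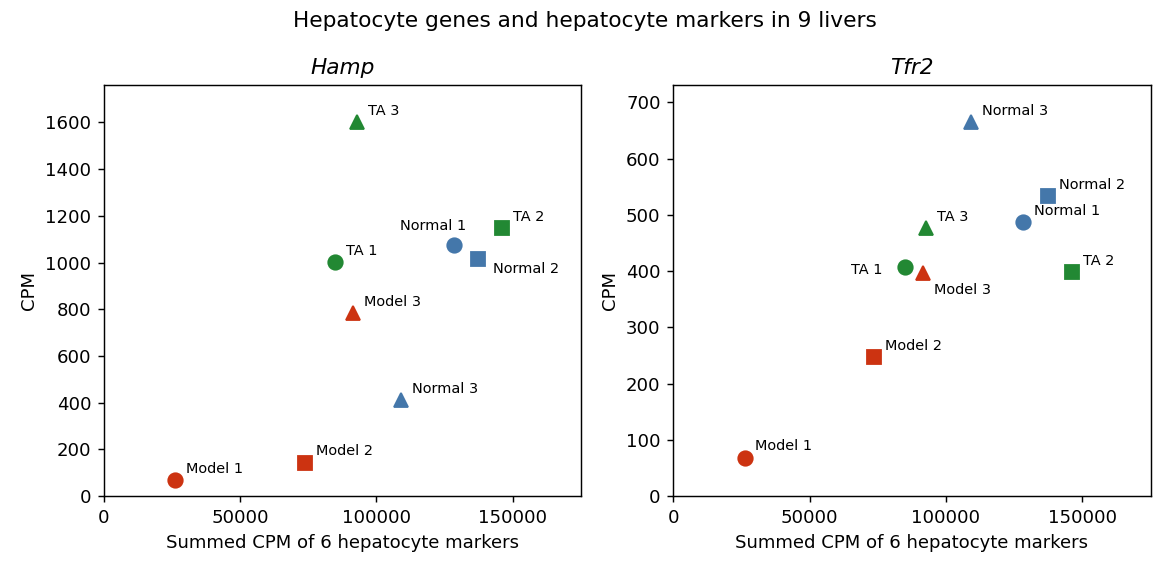
CPM of Hamp and of Tfr2 in each liver against the summed CPM of 6 hepatocyte markers; colours give the group and each point is named. Model livers 1 and 2 had the lowest marker sums and the lowest Hamp and Tfr2. Normal liver 3 had the least Hamp (412 CPM) and the lowest marker sum (109070 CPM) of the normal livers.

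Of the genes that carry iron and take it up, none passed in any comparison. Tf, the plasma iron carrier, held 29409, 28159 and 19194 CPM in normal, 10244, 28444 and 19635 CPM in model and 26708, 35241 and 16394 CPM in TA livers. The first model liver was the lowest of all, and the other model livers lay within the normal range. Its difference between model and normal livers was -0.39 ± 0.88 on the log2 scale (edgeR, adjusted p = 0.794) but 0.13 with library totals, under which the median of all genes moved to 0.65, and 0.66 per hepatocyte marker read. Tfrc, the receptor for iron-laden transferrin, spanned 41.4 to 98.3 CPM in normal, 35.9 to 104 CPM in model and 40.5 to 92.9 CPM in TA livers. These ranges largely coincide. Slc39a14, which takes up iron not bound to transferrin, held 187, 191 and 285 CPM in normal, 62.6, 238 and 143 CPM in model and 202, 167 and 193 CPM in TA livers. The difference of model from normal livers was -0.58 ± 0.48 (log2, adjusted p = 0.454), and -0.23 without the first model liver.

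Slc40a1, the exporter that hepcidin degrades, had few reads, from 18 to 251 per liver. It held 3.74, 4.25 and 1.51 CPM in normal, 11.3, 4.28 and 2.40 CPM in model and 5.41, 5.41 and 1.72 CPM in TA livers. The first model liver alone stood above the rest. Model livers differed from normal livers by 0.93 ± 0.64 on the log2 scale for Slc40a1 (edgeR, adjusted p = 0.365) and 0.050 without that liver. Cp, the plasma ferroxidase, held 1135, 1277 and 1187 CPM in normal, 605, 1633 and 1392 CPM in model and 2278, 1514 and 1560 CPM in TA livers. All TA livers lay above all normal livers, with a log2 fold change of 0.54 ± 0.23 (unadjusted p = 0.0469, adjusted p = 0.514), which was 0.32 without the first TA liver. In Model VS Normal the first model liver lay below and the others above all normal livers, and the fold change of Cp was 0.015 ± 0.50 (adjusted p = 0.987).

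Ftl1, the ferritin light chain, held 20.3, 22.4 and 10.7 CPM in normal, 24.6, 13.9 and 24.6 CPM in model and 16.6, 20.8 and 22.6 CPM in TA livers. All groups overlapped, and its log2 fold changes were 0.25 ± 0.35 in Model VS Normal (edgeR, adjusted p = 0.673), -0.071 ± 0.29 in TA VS Model (adjusted p = 0.921) and 0.14 ± 0.30 in TA VS Normal (adjusted p = 0.964).

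Around these genes, 79 other genes of iron metabolism were counted in 6 lists by role, and 77 were matched (not Ftmt and Pcbp1). In Model VS Normal, 6 of 73 tested rose and 2 fell at an adjusted p under 0.05 (edgeR), against 6.86% and 1.01% of all genes. The median log2 fold change of the 73 was -0.15, against 0.017 over all genes. In TA VS Model, 0 of 74 passed and 15 had an unadjusted p under 0.05, against 0% and 15.6% of all genes. DESeq2 and limma voom passed 4 and 1 of the 74, against 4.25% and 1.6%. In TA VS Normal, 1 of 72 rose and 0 fell, against 0.23% and 0.0328% of all genes. The numbers tested differ because each comparison applied its own filter on low counts.

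Among genes of cellular uptake and reduction, 2 of 10 rose in Model VS Normal, against 6.86% of all genes. Scara5, a receptor for serum ferritin, had 16, 14 and 13 reads in normal, 413, 186 and 324 in model and 226, 149 and 191 in TA livers. Neither fibrotic group overlapped the normal livers for Scara5. Compared with normal livers, it rose by 4.02 ± 0.37 (log2, SE) in model livers (edgeR, adjusted p = 0.00742) and by 3.66 ± 0.29 in TA livers (adjusted p = 0.00874), the only 1 of the 72 genes to pass there. Steap2, a metalloreductase, had 7, 6 and 7 reads in normal, 231, 66 and 63 in model and 46, 12 and 44 in TA livers, and rose by 3.62 ± 0.54 (adjusted p = 0.0138) in Model VS Normal. Steap2 passed the filter on low counts there only through its reads in model livers, so its rise is not independent of that filter. The median log2 fold change of the 10 genes was 1.22 in Model VS Normal, -0.25 in TA VS Model and 0.59 in TA VS Normal, against 0.017, -0.0038 and -0.0096 over all genes. The 10 did not move as one. Chosen after their values were seen, Slc39a8 (-1.19, adjusted p = 0.0797, edgeR) and Mcoln1 (-0.97, adjusted p = 0.0747) were lower in every model than in every normal liver. Steap3 was at -0.29 with overlap, and the rest of the list had positive values in Model VS Normal.

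Of the genes for storage and chaperones, 1 of 3 tested rose, against the same 6.86%. Heph, a membrane ferroxidase related to ceruloplasmin, had 17, 18 and 12 reads in normal, 390, 131 and 52 in model and 50, 40 and 57 in TA livers, and rose by 3.06 ± 0.60 in Model VS Normal (edgeR, adjusted p = 0.0282). Pcbp2, an iron chaperone, differed by -0.14 ± 0.24 between model and normal livers (log2, adjusted p = 0.733), and by 0.47 with library totals. Of 11 haem scavenging and breakdown genes tested, 1 fell, against 1.01% of all genes. Slc46a1, which carries folate and haem into cells, held 76.7, 46.4 and 40.3 CPM in normal, 10.5, 13.2 and 18.0 CPM in model and 25.9, 29.3 and 31.9 CPM in TA livers. The 3 groups of Slc46a1 did not overlap, it fell by 1.97 on the log2 scale in Model VS Normal (SE 0.33, adjusted p = 0.0181), and it was 1.07 ± 0.26 higher in TA VS Model (adjusted p = 0.246). Hmox2, the constitutive haem oxygenase, averaged 62.6 ± 4.87 CPM (SD, n = 3) in normal, 38.2 ± 6.94 CPM in model and 58.4 ± 3.75 CPM in TA livers (adjusted p = 0.0888 between model and normal and 0.282 between TA and model livers).

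In the list for hepcidin control, 3 of 26 rose and 0 fell in Model VS Normal, against 6.86% and 1.01% of all genes. Bmp4, another ligand of the BMP receptors, had 16, 9 and 26 reads in normal, 95, 216 and 82 in model and 53, 54 and 80 in TA livers, and rose by 2.58 ± 0.64 (edgeR, adjusted p = 0.0499). Fst, which encodes follistatin, a secreted protein that binds activins and some BMPs, had 0, 2 and 3 reads in normal, 246, 44 and 41 in model and 25, 8 and 13 in TA livers. Its fitted log2 fold change of 5.39 ± 0.96 (adjusted p = 0.0215) rests on those few normal reads and depends on the prior count. Fst and Bmp4 also passed the filter on low counts in Model VS Normal only with their reads in model livers. Their rise is therefore not independent of that filter. In TA VS Normal, Fst was not tested, although its groups did not overlap. Tfpi, an inhibitor of clotting, had 96, 108 and 100 reads in normal, 754, 334 and 227 in model and 174, 173 and 212 in TA livers, and rose by 1.63 ± 0.32 (adjusted p = 0.0282). The following were chosen after their values were seen. Id1, a target of BMP signals, averaged 10.4 ± 5.01 CPM in normal, 25.7 ± 7.70 CPM in model and 15.1 ± 3.38 CPM in TA livers (Model VS Normal 1.31 ± 0.39, adjusted p = 0.0764). The other targets of BMP signals in the list did not move as one: the log2 fold change in Model VS Normal was 0.93 for Id3, 0.21 for Id2, 0.090 for Smad7, 0.077 for Smad6 and -1.15 for Atoh8, and none passed (adjusted p from 0.165 to 0.876). Hfe2, the older symbol of hemojuvelin, averaged 125 ± 16.5, 63.3 ± 41.7 and 111 ± 54.3 CPM, and Tmprss6, the protease that cleaves hemojuvelin, 475 ± 53.6, 203 ± 111 and 379 ± 78.5 CPM, with adjusted p = 0.253 and 0.138 in Model VS Normal. Bmp2, the other main endothelial ligand, averaged 16.2 ± 1.47 CPM in normal and 11.5 ± 4.63 CPM in model livers (adjusted p = 0.374).

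No gene of the iron regulatory protein and oxygen sensing list passed (0 of 6 in each comparison). The shares of all genes were 7.87% in Model VS Normal, 0% in TA VS Model and 0.263% in TA VS Normal. At an unadjusted p under 0.05 there were 0, 1 and 0 of the 6, against 28.9%, 15.6% and 9.43%. Ireb2, an iron regulatory protein, averaged 20.7 ± 6.15 CPM in model and 34.4 ± 3.95 CPM in TA livers (0.74 ± 0.27, adjusted p = 0.281, edgeR). Aco1, the other such protein, held 174, 146 and 128 CPM in normal and 85.8, 75.5 and 121 CPM in model livers. These 2 groups did not overlap, as for 38.2% of all genes. Of 17 genes of mitochondrial iron and haem synthesis, 1 fell in Model VS Normal, against 1.01% of all genes. Alas1, the first and rate-limiting enzyme of haem synthesis, held 188, 297 and 218 CPM in normal, 44.0, 52.0 and 84.0 CPM in model and 378, 105 and 100 CPM in TA livers, and fell by 1.96 on the log2 scale (SE 0.36, adjusted p = 0.0234). Ppox, a later enzyme of the same path, averaged 44.0 ± 11.5 CPM in normal and 22.4 ± 2.84 CPM in model livers (-0.97 ± 0.25, adjusted p = 0.0548). For Model VS Normal the median log2 fold change of the 17 genes was -0.78, against 0.017 over all genes, and for TA VS Model it was 0.51, against -0.0038. The 6 hepatocyte markers had medians of -1.02 and 0.90 in these 2 comparisons. What part hepatocytes have in the values of the 17 genes was not tested. Model and normal livers did not overlap for 12 of the 17, against 38.2% of all genes.

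**Figure D4:**
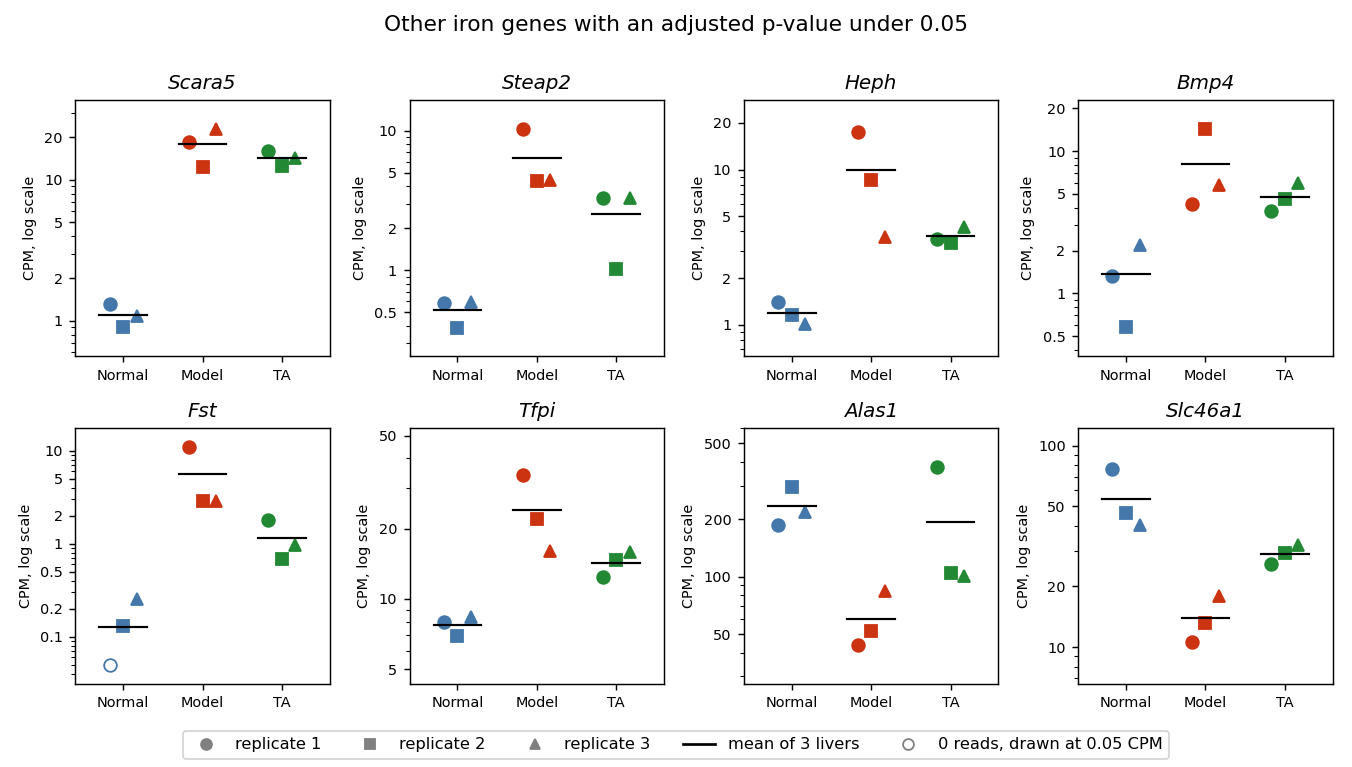
CPM, on a log axis, of the 8 other iron genes that passed in Model VS Normal, in each liver; symbols give the replicate, lines the mean of 3 livers, and an open symbol 0 reads, drawn at 0.05 CPM. In all 8 panels the model livers lay apart from the normal livers, with Alas1 and Slc46a1 lower and the other 6 higher.

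Leaving out 1 library at a time could lift the adjusted p of each of these 8 genes above 0.05, up to 0.0699 for Scara5 and 0.174 for Bmp4, and the number of the 73 genes that passed ran from 0 to 23. Stellate cell and bile duct markers also rose in the model livers (4 of 6 and 4 of 5 at an adjusted p under 0.05, edgeR, against 6.86% of all genes). In TA VS Model the median log2 fold changes of these markers were -2.23 and -2.26. The 6 iron genes that rose in model livers ran from -2.29 for Fst to -0.32 for Scara5 there. What part these cells have in the results was not tested.

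For every iron handling gene averaging 3 log2 CPM or more, likeness was measured as the root mean square difference of centred log2 CPM over the 9 livers, which share their libraries and depth, against 7952 genes. The genes closest to Hamp were Acsl1 (0.42) and Cyp3a23/3a1 (0.43), where Hamp itself had an SD of 1.54 over the livers and the median gene differed by 1.43. Tfr2 was closest to Azgp1 (0.15) and Cyb5a (0.15), Tf to Acad8 (0.14) and Ahsg (0.16), and Cp to Hspd1 (0.20). Tfrc was closest to Ifrd1 (0.25) and Tet2 (0.34), Slc39a14 to LOC102555672 (0.18) and Tm4sf4 (0.19), and Ftl1 to Tmcc3 (0.17) and Ppp1r8 (0.20).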

How the data were processed

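The authors sequenced RNA of 9 rat livers, 3 each in the normal, model and TA groups, from 13156735 to 18090223 counted reads. The groups and replicate numbers came from the labels, and the TA libraries were taken as 1 group at 3.0 mg/kg from the design text. After trimming and mapping with STAR, the authors deposited gene counts of raw reads from HTSeq-count, with no normalization, on which all tests rest. FPKM values deposited by the authors were used here only for levels per length. The methods name the human genome hg19 and the labels' processing notes mm9, whereas the symbols are rat; other versions are not given in the sources used here. Deposited normalized values, and the authors' log2 fold changes and p-values for their pairs of groups, were not used.

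Counts were tested with edgeR 4.0.16 (quasi-likelihood test, TMM, filterByExpr) in R 4.3.3 on the 6 libraries of each comparison over all genes, with Benjamini-Hochberg adjustment at 0.05, and, as in the study, at p under 0.05, unadjusted, with more than 1 log2 unit of change either way. The genes of both tables entered TA VS Normal. CPM used TMM over 9 libraries. Each standard error is the fold change (log2) over the root of the F statistic. The fit was tested on simulated data. Alternatives were DESeq2 1.42.0, limma 3.58.1 (voom with quality weights), DESeq2 size factors, library totals, no filter, the newer quasi-likelihood form, a block on the replicate number, a fit of all 9 libraries, and omission of each library. The per hepatocyte measure and the alternatives for the other iron genes were added after the data were seen.

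The 10 genes and all lists were chosen with earlier results of these data known. Named were all members, and from each list of other iron genes those with an adjusted p under 0.05, or, with fewer than 2, the 2 with the smallest p; any other is said to be chosen after its values were seen. Likeness named the 2 nearest genes, of which 1 is not reported here. Replicate numbers come from the labels. Same-numbered TA and normal livers deviated together (r from 0.26 to 0.50 across genes). For the first model liver, r was 0.21 with the first normal and 0.22 with the first TA liver. Model livers 2 and 3 did not deviate with the normal and TA livers of their own number (r from -0.06 to 0.0065). Across numbers, r was 0.20 for model liver 3 with normal liver 2 and 0.20 with TA liver 2. For model liver 2 it was 0.17 with normal liver 3 and 0.085 with TA liver 3. The remaining differently numbered pairs with a model liver had negative r. A block on the replicate number does not join these pairs. The results are from fits without the block, and its effect is given where it moved a count. Precision was limited by the spread between 3 livers and, for Bmp6 and Slc40a1, by low counts.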

Additional observations from a re-analysis of the deposited data

How the results depend on the processing

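Over 15 alternatives in each of 3 comparisons, the 9 genes gave 405 values, of which 354 kept their direction and their side of the threshold, 45 turned direction and 6 newly passed. The cause was not tested, except that library totals moved the median of all genes to 0.65, -0.48 and 0.18 in Model VS Normal, TA VS Model and TA VS Normal. Of 532 values for the other named iron genes, 473 kept both, 13 turned direction, 17 newly passed and 29 no longer passed.

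In Model VS Normal, all genes passing (1002) became 1980 with library totals, 2654 with DESeq2, 3467 with limma voom, 1757 with all 9 libraries and 0 to 2537 on leaving out 1 library. Iron handling genes passing (0) became 1, 1 and 3 with library totals, DESeq2 and limma voom, and 0 to 1 on leaving out 1 library. Those at the unadjusted threshold, p under 0.05 and more than 1 log2 unit apart (1), became 2 with DESeq2, all 9 libraries or the block, 3 with limma voom, and 0 to 3 on leaving out 1 library. In TA VS Model, all genes passing (0) became 541 with DESeq2, 205 with limma voom and 0 to 1 on leaving out 1 library; at the unadjusted threshold 1571 became 2447 with library totals and 792 to 2792. Iron handling genes at that threshold (0) became 1 with DESeq2, limma voom, no filter, all 9 libraries or the block, and 0 to 2. In TA VS Normal, all genes passing (32) became 56 with library totals, 360 with DESeq2, 127 with limma voom, 76 with no filter, 14 with all 9 libraries and 1 to 61 on leaving out 1 library, and iron handling genes at the unadjusted threshold (1) became 0 to 1. A block on the replicate number passed 203 genes there in place of 32, and still 0 of the 9, Bmp6 being lowest (adjusted p = 0.136). The block changed no adjusted call of the 9 genes in the other comparisons. Other iron genes passing in Model VS Normal (8) became 13, 22, 31 and 15 with library totals, DESeq2, limma voom and all 9 libraries; Bmp4 also missed the threshold with DESeq2 size factors (0.0507) and the block (0.0723).

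Directions turned as follows. With library totals, Model VS Normal gave 0.13 for Tf, 0.39 for Tfrc, 0.47 for Pcbp2 and 0.091 for Ireb2, TA VS Model -0.011 for Slc39a14, -0.45 for Pcbp2, -0.0047 for Aco1 and -0.035 for Ppox, and TA VS Normal 0.016 for Pcbp2 and 0.053 for Hmox2. With limma voom, Model VS Normal gave 0.61 for Tfrc, 0.027 for Slc39a14 and -0.28 for Ftl1, TA VS Model 0.24 for Slc40a1, -0.092 for Slc39a14, 0.21 for Ftl1, 0.036 for Scara5 and -0.13 for Pcbp2, and TA VS Normal 0.015 for Tfrc and -0.083 for Ftl1. Per hepatocyte marker read, Model VS Normal gave 0.66 for Tf, 0.98 for Tfrc and 0.40 for Slc39a14, TA VS Model -0.42 for Tf, -0.37 for Slc39a14 and -0.25 for Cp, and TA VS Normal 0.033 for Slc39a14. DESeq2 and its size factors both gave -0.0082 for Cp in Model VS Normal and -0.0032 for Tf in TA VS Normal, no filter gave -0.0023 and -0.0054, and the block -0.099 and -0.044, with -2.0e-05 for Pcbp2 in TA VS Model. On leaving out 1 library, Model VS Normal ran from -0.52 to 0.16 for Tfrc, -0.050 to 0.47 for Ftl1 and -0.26 to 0.32 for Cp, TA VS Model from -0.52 to 0.22 for Tfrc, -0.89 to 0.33 for Slc40a1, -0.0098 to 0.87 for Slc39a14, -0.30 to 0.068 for Ftl1 and -0.11 to 0.11 for Pcbp2, and TA VS Normal from -0.29 to 0.25 for Tf, -0.13 to 0.34 for Ftl1 and -1.23 to 0.014 for Alas1. Depth limits Bmp6, Slc40a1, Scara5, Bmp4, Fst, Steap2 and Heph, which had few reads in normal livers.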
